A study of Mus musculus with 9 samples.

Results

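Guanylate-binding proteins are large GTPases encoded in the mouse by gene clusters on chromosomes 3 and 5. The 10 genes described here were taken by symbol from the 55487 genes of the deposited read count table, namely Gbp2, Gbp3, Gbp5 and Gbp7 on chromosome 3 and Gbp4, Gbp6, Gbp8, Gbp9, Gbp10 and Gbp11 on chromosome 5. Their transcript levels were followed in B16F10 cells, and the 4 chromosome 3 members were compared with the 6 chromosome 5 members.

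Guanylate-binding proteins belong to the dynamin superfamily and are made by many cell types in response to interferon gamma (IFNg), a cytokine released by T cells and natural killer cells. IFNg binds its receptor and activates the kinases JAK1 and JAK2. Target genes carry elements such as the gamma-activated sequence (GAS) and the interferon-stimulated response element (ISRE), and IRF1, made in the first wave of the response, binds the latter. Guanylate-binding proteins bind and hydrolyse GTP, assemble on the membranes of vacuoles that hold pathogens, and help to activate inflammasomes; some of them carry a C-terminal motif for attachment of a lipid.

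B16F10 is a mouse melanoma cell line. Its polyA RNA was sequenced after 6 h in medium alone (Media), in medium with IFNg at 50 ng/mL (IFNg), or in medium with IFNg at 50 ng/mL and FK866 at 50 nM (IFNg + FK866), with 3 libraries in each group. FK866 is an inhibitor of NAMPT, which makes NAD from nicotinamide. In each group the 3 titles read Control 3, Control 4 and Control 5, a numbering whose meaning is not given in the sources used here, and no group received FK866 alone. The treatment text allows mouse or human IFNg and names a mouse product. The labels leave unsaid if the libraries of a group were separate cultures; a p-value therefore speaks of the spread among these libraries, which may be technical.

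Library totals ran from 15317003 to 18466972 counts. The 8 genes listed as melanocyte lineage markers had counts in every group, with a summed level of 17243 to 19580 CPM (counts scaled to a common library total) in Media, 15877 to 17652 CPM with IFNg and 15293 to 17535 CPM with IFNg + FK866. Mitf, the lineage's transcription factor and 1 of the 8, fell with IFNg by 1.27 on the log2 scale (adjusted p = 7.73e-04, edgeR quasi-likelihood test). When the Control number entered the fit as a block, 3 of the 8 fell. Over all genes tested, 0.499% were called lower with IFNg without the block and 6.14% with it. Of 8 leukocyte markers, 6 were at 0 in every library, among them Ptprc, and the summed level of the list, nearly all of it Cd68, was 3.64 to 11.3 CPM in Media, 3.08 to 9.75 CPM with IFNg and 4.39 to 9.20 CPM with IFNg + FK866. Of 8 markers of fibroblasts, endothelium and keratinocytes, 4 were at 0 in every library, among them Cdh5 and Krt14. Their summed level was 7.46 to 14.6 CPM in Media, 3.49 to 8.77 CPM with IFNg and 3.97 to 10.1 CPM with IFNg + FK866, and 1 of them, Col1a2, fell with IFNg by 1.69 on the log2 scale (adjusted p = 0.00952). The part of these markers in the levels of the Gbp genes was not tested. In bulk RNA, fewer cells of a kind and less RNA per cell cannot be told apart.

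In the GENCODE M21 annotation of GRCm38, the 4 chromosome 3 members lie on the plus strand within 144 kb (chr3:142493978-142638008), in the order Gbp5, Gbp7, Gbp3 and Gbp2. The 6 chromosome 5 members lie on the minus strand within 332 kb (chr5:105014150-105346472), and from the lowest coordinate upward they follow as Gbp8, Gbp9, Gbp4, Gbp10, Gbp6 and Gbp11. Gbp11 is annotated as a polymorphic pseudogene and the other 9 as protein-coding. The aligned coding bases of the chromosome 5 members were 90.02% to 98.4% identical over 15 pairs (median 90.8%), and those of the chromosome 3 members were 64.4% to 78.5% identical over 6 pairs (median 65.1%). Across chromosomes, 24 pairs were 63.4% to 75.4% identical. The closest pair of all was Gbp6 with Gbp10, and the closest pair on chromosome 3 was Gbp3 with Gbp7. Gbp3 and Gbp7 were also nearer to each chromosome 5 member, at 72.4% to 75.4%, than to Gbp2 or Gbp5, at 64.4% to 65.3%.

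**Figure D1:**
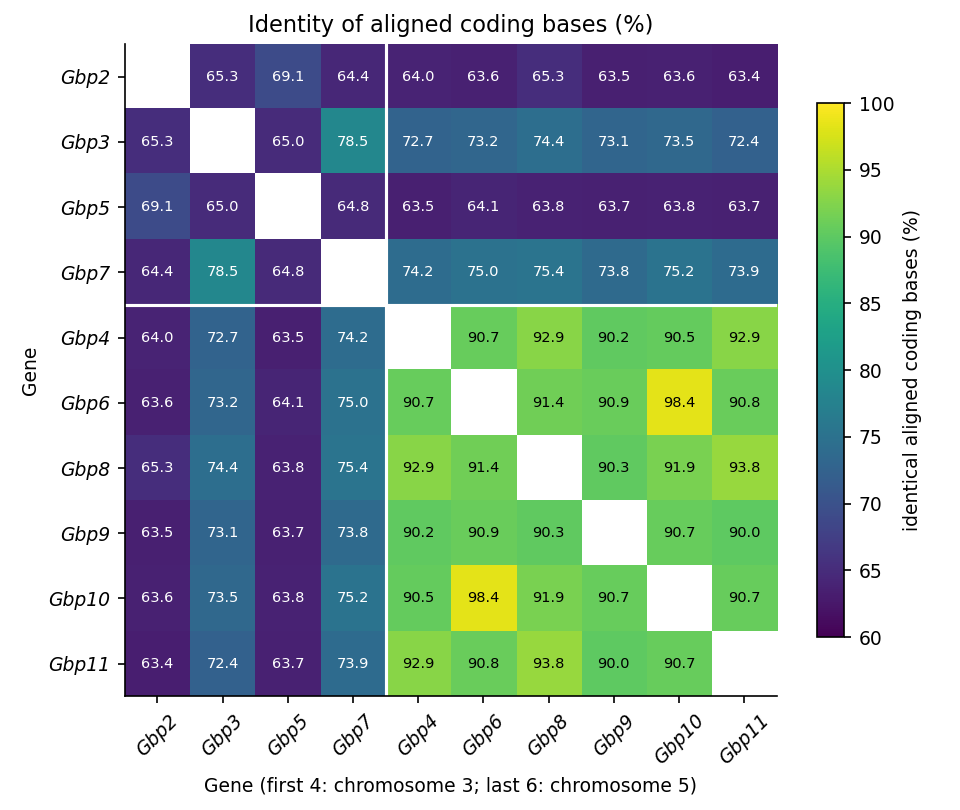
Percent of aligned coding bases that are identical between each pair of the 10 genes, computed from GENCODE M21 coding sequences; rows and columns list the chromosome 3 members before the chromosome 5 members, and white lines part the chromosomes. The chromosome 5 block lies at 90.02% or above, and the brightest cells are Gbp6 with Gbp10 at 98.4%.

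This likeness limits how far reads can be assigned. Of the 50-base stretches of the transcript with the longest coding sequence, 90.2% in Gbp6 and 82.5% in Gbp10 also occur in a transcript of another Gbp gene or of Gm43302, an annotated gene whose exons overlap those of both. Leaving out Gm43302, the shares were 70.3% in Gbp6 and 73.9% in Gbp10. With or without it, the share was 21.2% in Gbp8, 19.2% in Gbp11, 12.8% in Gbp4, 9.56% in Gbp9 and 0% to 4.79% in the chromosome 3 members. Gm43302 covers 29.0% of the exon bases of Gbp6 and 46.3% of those of Gbp10. How reads that match several genes were counted is not given in the sources used here, so the levels of Gbp6 and Gbp10, and less so those of the other chromosome 5 members, are uncertain.

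Sequences before annotated starts were searched because the 10 members were higher than in Media in every IFNg library, and because GAS and ISRE are the elements of the IFNg route. Those of the chromosome 3 members are shown because only these were matched to a promoter. RefSeq promoters (GRCm38.p6) matched 4 of the 10 members; Gbp4, Gbp6, Gbp8, Gbp9, Gbp10 and Gbp11 were not matched. The 250 bases before each RefSeq start were searched on both strands for GAS as TTCNNNGAA, which reads the same on both strands, and for the ISRE core as GAAA, any 2 bases and GAAA or, on the other strand, TTTC, any 2 bases and TTTC. Matches are in capitals, and each stretch runs 5′ to 3′ on the plus strand, from base 250 before the start to the first base of an annotated exon or to the end of the last match.
Gbp5 (chr3:142496684-142496899, between exons of a longer annotated Gbp5 transcript): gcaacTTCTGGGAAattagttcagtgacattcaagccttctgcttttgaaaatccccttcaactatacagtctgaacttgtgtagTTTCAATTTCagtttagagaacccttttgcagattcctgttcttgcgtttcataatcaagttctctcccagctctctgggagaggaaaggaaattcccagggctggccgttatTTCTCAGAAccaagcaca
Gbp7 (chr3:142530086-142530335, before the annotated gene): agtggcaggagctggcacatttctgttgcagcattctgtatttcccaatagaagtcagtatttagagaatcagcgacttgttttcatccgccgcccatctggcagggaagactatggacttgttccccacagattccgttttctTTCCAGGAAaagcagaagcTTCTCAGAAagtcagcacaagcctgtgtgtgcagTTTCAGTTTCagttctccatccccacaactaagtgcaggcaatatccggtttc
Gbp3 (chr3:142559794-142560025, before the annotated gene): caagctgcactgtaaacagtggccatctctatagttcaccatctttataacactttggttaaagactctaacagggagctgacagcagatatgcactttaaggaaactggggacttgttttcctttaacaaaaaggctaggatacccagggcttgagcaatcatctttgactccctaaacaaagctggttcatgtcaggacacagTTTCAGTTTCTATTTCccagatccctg
Gbp2 (chr3:142620413-142620613, of which the last 12 bases lie in an annotated first exon): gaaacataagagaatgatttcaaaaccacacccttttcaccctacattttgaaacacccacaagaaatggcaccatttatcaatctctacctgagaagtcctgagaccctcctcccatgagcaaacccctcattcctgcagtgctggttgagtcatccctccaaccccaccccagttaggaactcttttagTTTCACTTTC

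Gbp5 and Gbp7 each held 2 GAS matches and 1 ISRE core match. In Gbp7 these lay 106 to 98, 87 to 79 and 53 to 44 bases before the start, and in Gbp5 the nearest was the GAS match 52 to 44 bases before it. Gbp3 held 2 overlapping ISRE core matches, 45 to 36 and 39 to 30 bases before its first start, and none before a second RefSeq start. Gbp2 held 1 ISRE core match, 59 to 50 bases before the start. Among 32851 RefSeq promoters cut to the same length, 7.02% held a GAS match, 2.98% an ISRE core match and 9.66% either. A match is a description of the letters and not a measured site of binding.

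The comparison of IFNg with Media asks how transcript levels respond to the cytokine. The 10 genes were low or at 0 in Media, and after 6 h of IFNg their levels ran from 0.325 ± 0.139 CPM for Gbp8 to 1686 ± 305 CPM for Gbp2 (SD, n = 3). Levels are CPM scaled by TMM, a correction for differences in library composition. Gbp2, the most abundant member per length, stood at 5.59, 7.07 and 6.33 CPM in the Media libraries Control 3, 4 and 5. With IFNg it stood at 1767, 1942 and 1348 CPM, and with IFNg + FK866 at 1806, 2031 and 1112 CPM. The lowest of the 6 libraries with IFNg was thus far above the highest Media library, and both IFNg groups overlapped. The fitted log2 fold change with IFNg was 8.05 (SE 0.30, adjusted p = 2.63e-07, edgeR quasi-likelihood test), and the ratio of the counts summed over each group, scaled by library size, was 264.

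Gbp7, a neighbour of Gbp3 and Gbp5 in the cluster, had 0.188, 0.657 and 0.298 CPM in Media, 206, 180.2 and 149 CPM with IFNg, and 217, 186 and 129 CPM with IFNg + FK866. Its log2 fold change with IFNg was 8.81 (SE 0.36, adjusted p = 5.32e-07), and 9.47 without the Control 4 Media library, which held 12 of its 20 Media counts. Gbp3 was the member with the highest Media level after Gbp2, at 0.816, 1.75 and 1.37 CPM. It reached 107, 128 and 57.5 CPM with IFNg and 120.4, 130.3 and 54.2 CPM with IFNg + FK866, a log2 fold change with IFNg of 6.19 (SE 0.49, adjusted p = 5.36e-05). For both genes, Control 5 was the lowest library of each IFNg group, and no library with IFNg overlapped Media.

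Gbp5, which helps inflammasomes to assemble, had 1 count in 1 Media library and 0 counts in the other 2. It stood at 12.8, 37.3 and 10.2 CPM with IFNg and at 14.2, 42.4 and 11.4 CPM with IFNg + FK866. The Control 4 library was 3.66 times the lowest library with IFNg and 3.72 times with IFNg + FK866, the widest spread of a chromosome 3 member. The ratio of IFNg to Media was 1028 with a 95% counting interval of 184 to 40663. Gbp5 rose with an adjusted p of 0.00109 by edgeR, and this call was lost with limma-voom (adjusted p = 0.0507). Both of these fits left out the Control number. With the number as a block, the adjusted p by edgeR was 7.94e-16. Over the alternatives run, these values with the block and by limma-voom were the lowest and the highest.

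On chromosome 5, Gbp4, Gbp8, Gbp9 and Gbp10 had 0 counts in the 3 Media libraries, Gbp6 had 1 and Gbp11 had 5. Gbp6, the most abundant of them per length, stood at 114, 104 and 98.97 CPM with IFNg and at 119.5, 114 and 98.2 CPM with IFNg + FK866. Its libraries were the closest together of any member, with the highest 1.15 times the lowest with IFNg. The ratio of IFNg to Media was 5362 with a counting interval of 962 to 211821, and Gbp6 rose with an adjusted p of 1.46e-08 by edgeR's quasi-likelihood test.

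Gbp4 stood at 27.3, 43.9 and 34.9 CPM with IFNg and at 35.2, 46.5 and 45.6 CPM with IFNg + FK866. Set against a floor of 3 counts over the Media group, IFNg was at least 604-fold higher (adjusted p = 6.30e-06). Unlike the chromosome 3 members, Gbp4 was lowest in the Control 3 libraries in both IFNg groups. Gbp10 stood at 9.55, 7.49 and 5.57 CPM with IFNg and at 11.0, 6.97 and 7.20 CPM with IFNg + FK866. It was at least 127-fold higher with IFNg than the floor (adjusted p = 8.16e-05). Gbp9 stood at 3.03, 1.58 and 2.37 CPM with IFNg and at 3.24, 2.704 and 4.45 CPM with IFNg + FK866, at least 39.2-fold above the floor with IFNg (adjusted p = 6.12e-04).

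Gbp11, the polymorphic pseudogene, had 5 counts in the Control 4 Media library and 0 in the others. It stood at 11.4, 6.94 and 3.91 CPM with IFNg and at 11.9, 10.1 and 9.17 CPM with IFNg + FK866, in the order Control 3, 4 and 5 from high to low in both. Its log2 fold change with IFNg was 6.15 (SE 0.76, adjusted p = 0.00127) and was 9.95 without the Control 4 Media library. No Media count of Gbp11 was then left, so the value of 9.95 rests on no measured Media level. Gbp8 was the lowest member, with 0 counts in Media, 3, 5 and 8 counts with IFNg and 1, 14 and 4 counts with IFNg + FK866. It did not pass the filter on low counts and was not tested; IFNg was at least 5.60-fold above the floor, and a count of 3 corresponds to 0.156 to 0.198 CPM per library. These intervals and floors describe counting error alone.

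**Figure D2:**
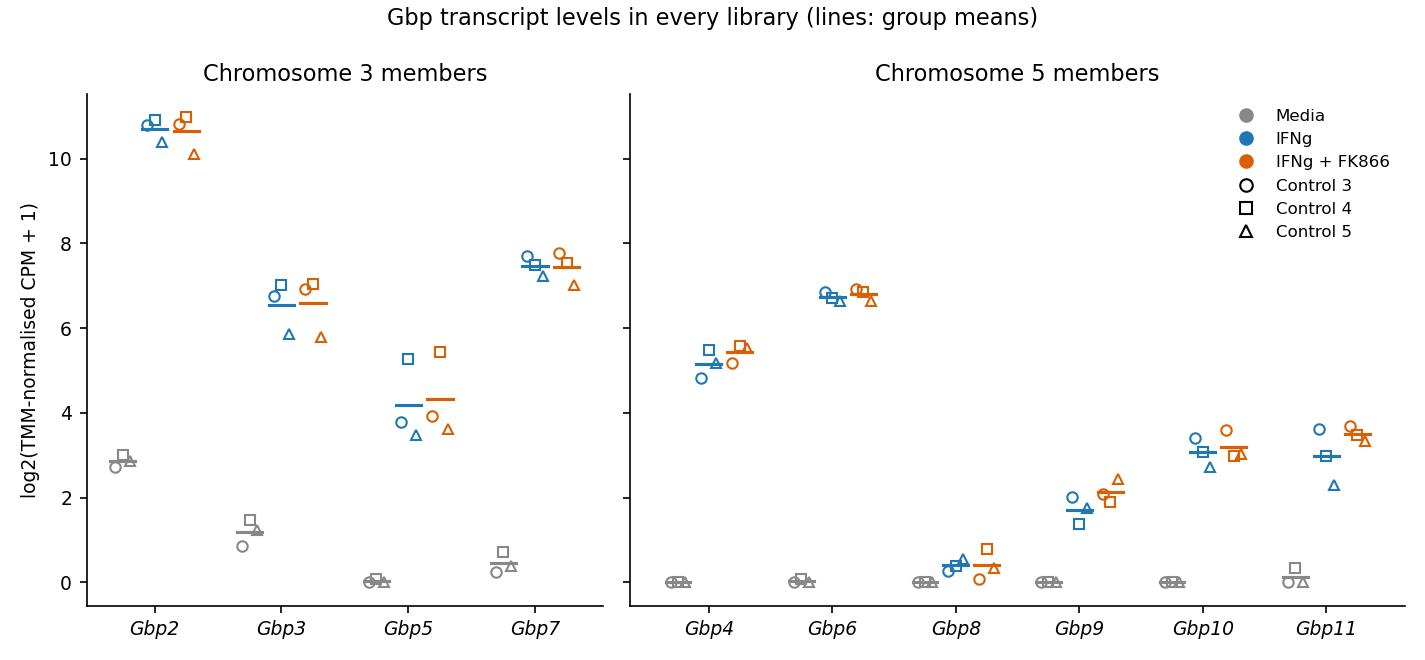
TMM-normalised levels of the 10 genes as log2(CPM + 1) in each of the 9 libraries, with chromosome 3 members on the left and chromosome 5 members on the right; colours mark the groups, symbols the Control numbers and lines the group means. In each gene, both IFNg groups lie above Media and overlap each other.

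The 9 members with enough counts to be tested were called higher with IFNg, and 0 were called lower. Over the 15237 genes tested, 2.8% were called higher and 0.499% lower. The 9 passed the filter through the libraries with IFNg, where they were high, so the count describes them and supports nothing more. The IFNg libraries lay above the Media libraries without overlap in 10 of the 10 members and in 7.97% of the tested genes. The 10 members together held 0.000679% to 0.00101% of a library's counts in Media and 0.163% to 0.250% with IFNg. Gbp2b, a further protein-coding Gbp gene within the chromosome 3 cluster and no member, had 7 counts in Media, 24 with IFNg and 23 with IFNg + FK866. Its log2 fold change with IFNg was 1.78 (SE 0.95, adjusted p = 0.686), below that of every tested member. Its own window of 250 bases holds 1 ISRE core match, 137 to 128 bases before the start. Gm43302 had 0 counts in Media, 14 with IFNg and 16 with IFNg + FK866.

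To set genes against each other, levels were divided by the length of the union of annotated exons. Per kilobase, Gbp2 was far above the rest with IFNg, at 670.01 ± 121 CPM per kb (SD, n = 3), and was 19.1 to 24.0 times Gbp7 in the same library. Gbp7 at 31.8 ± 5.15 and Gbp3 at 29.9 ± 11.1 CPM per kb overlapped each other, and the Gbp3 range overlapped that of Gbp6 at 17.7 ± 1.27 CPM per kb. Then followed Gbp4 at 4.72 ± 1.11, Gbp5 at 3.03 ± 2.26, Gbp11 at 2.75 ± 1.40 and Gbp10 at 1.95 ± 0.514 CPM per kb, each overlapping the next. Gbp9 at 0.450 ± 0.140 and Gbp8 at 0.0945 ± 0.0405 CPM per kb overlapped no neighbour. With IFNg + FK866 the order differed at 1 place, where Gbp11 at 3.86 ± 0.514 stood above Gbp5 at 3.42 ± 2.59 CPM per kb, and their ranges overlapped. Divided by coding length instead, Gbp2 at 952 ± 173 and Gbp7 at 93.1 ± 15.1 CPM per coding kb with IFNg lay closer together than per exon length. On that scale Gbp6 at 57.5 ± 4.13 stood above Gbp3 at 52.4 ± 19.5 CPM per coding kb with IFNg, again with overlap, and Gbp10 at 4.10 ± 1.08 stood above Gbp11 at 3.99 ± 2.02.

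**Figure D3:**
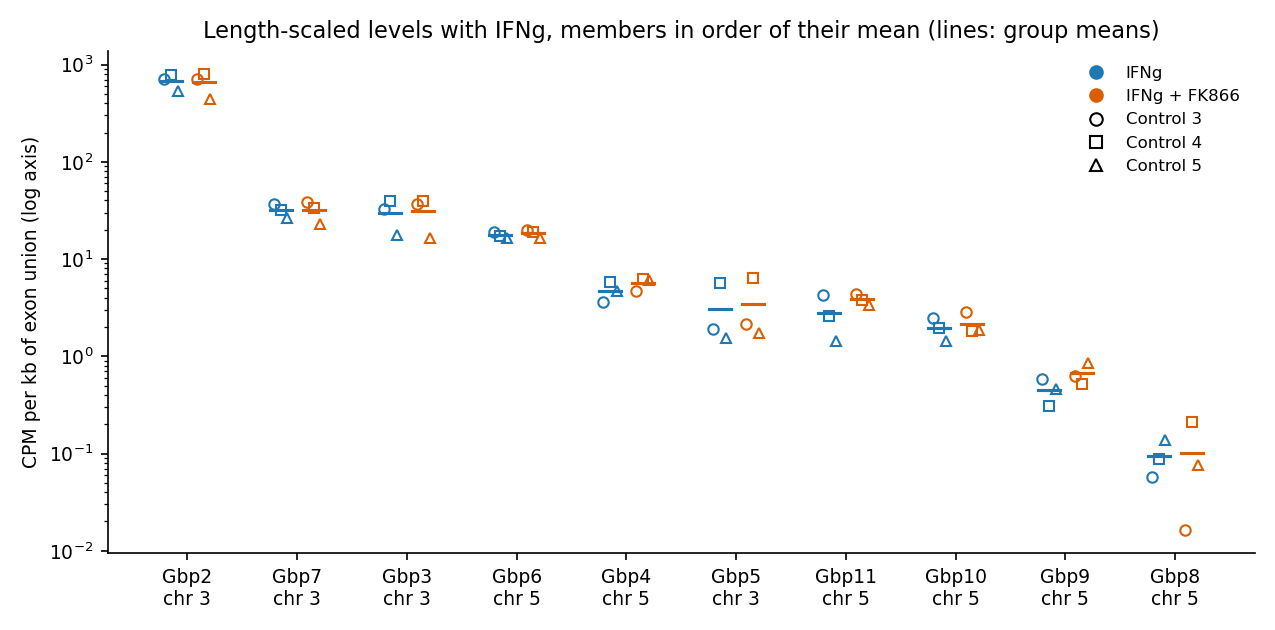
Level per kilobase of annotated exon, in CPM per kb on a log axis, of each gene in the 6 libraries with IFNg, ordered by the mean with IFNg; lines are group means. Gbp2 stands alone at the top at 670.01 CPM per kb, and Gbp8 at the bottom at 0.0945 CPM per kb.

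Summed per kilobase, the chromosome 3 members gave 774, 849 and 581 CPM per kb in the Control 3, 4 and 5 libraries with IFNg, and 795, 887 and 483 with IFNg + FK866. The chromosome 5 members gave 30.1, 28.2 and 24.8 CPM per kb with IFNg and 32.7, 31.6 and 28.8 with IFNg + FK866. The chromosome 3 sum was therefore the larger in each of the 6 libraries, 23.5 to 30.1 times the chromosome 5 sum with IFNg and 16.8 to 28.0 times with IFNg + FK866. Gbp2 alone made up 87.4% to 88.4% of the sum over both chromosomes with IFNg. Without Gbp2, the chromosome 3 sum was still the larger in each of the 6 libraries, by 1.84 to 2.73 times with IFNg and 1.43 to 2.51 times with IFNg + FK866. On chromosome 5, Gbp6 made up 61.8% to 67.1% of the cluster's sum with IFNg. The level of Gbp6 is uncertain because of the sequence it shares, so the chromosome 5 sum is uncertain too. The margin without Gbp2 depends on that sum and is given per exon length alone.

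The chromosome 5 members held 3.68% ± 0.44 of the summed level per kilobase with IFNg and 4.34% ± 1.14 with IFNg + FK866 (SD, n = 3). With coding length in place of exon length these shares were 7.28% and 8.38%, and without Gbp6 and Gbp10, the pair of near-identical coding sequence, 1.09% and 1.51%. In Media, the chromosome 3 members had 105, 174 and 134 counts and the chromosome 5 members 0, 6 and 0. Gbp2 held 78.4% to 88.7% of the summed level per kilobase in Media.

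The clusters also differed in how the libraries of a group lined up. The 4 chromosome 3 members were each lowest in Control 5 in both IFNg groups, against 3 of the 6 chromosome 5 members with IFNg and 2 of the 6 with IFNg + FK866. The coefficient of variation of the summed level per kilobase was 18.8% on chromosome 3 and 9.76% on chromosome 5 with IFNg, and 29.3% and 6.5% with IFNg + FK866. The chromosome 5 sum was mostly Gbp6, at 61.8% to 67.1% of it with IFNg and 57.3% to 61.4% with IFNg + FK866, and Gbp6 varied least among the 10 members, its highest library being 1.15 and 1.22 times its lowest. With IFNg that ratio was 1.91 for Gbp9, 1.71 for Gbp10 and 2.91 for Gbp11, above the 1.44 of Gbp2 and 1.39 of Gbp7. Gbp3 at 2.23 and Gbp5 at 3.66 lay above Gbp9 and Gbp10. The narrower spread of the sum thus did not hold member by member with IFNg. With IFNg + FK866 the ratio ran from 1.22 to 1.65 on chromosome 5 without Gbp8, and from 1.69 to 3.72 on chromosome 3. Gbp8 then stood at 13.04, on 1, 14 and 4 counts. Counting error was not taken out of these ratios. With IFNg, Gbp9 had 26 to 46 counts in a library and Gbp2 22756 to 31888. With 3 libraries in a group and genes of a cluster that are not replicates, the difference between the clusters was not tested. Between the IFNg groups, 8 of the 10 members had their highest library under the same Control number, and 7 had the same order of the 3 numbers. Libraries of the same number deviated from their group means together over all genes as well (correlations of 0.555 to 0.728). The shares of all tested genes with the same highest library, the same order or a lowest level in Control 5 were not computed. These counts are therefore not shown to be particular to the members or to a cluster.

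The comparison of IFNg + FK866 with IFNg asks how levels differ when the NAMPT inhibitor is added to the cytokine. Since no group received FK866 alone, a changed response to IFNg and an effect of FK866 itself cannot be told apart. These RNA counts do not measure the activity of NAMPT. No member was called in either direction, and 0 of the 15237 tested genes were, a share of 0%. At an unadjusted p below 0.05, 88 genes were counted by edgeR, 61 by DESeq2 and 85 by limma-voom, and both other tools also made 0 calls. These 3 fits all left out the Control number, so their 0 calls are not separate support. With the Control number as a block, 573 genes had such a p and 3 were called, a share of 0.0197%, none of them a member. Each count of such p-values is below a share of 0.05 of the tested genes. The median standard error by edgeR was 0.212 without the block and 0.106 with it. The ranges of both groups overlapped in 10 of the 10 members. Over the tested genes, the IFNg + FK866 range lay above the IFNg range in 1.94% and below it in 1.39%. Overlap was thus common to nearly all genes and is not particular to the members.

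Log2 differences are given here with 95% intervals from the fit with the block, which takes the libraries as paired by Control number. Without the block the intervals were wider and each included 0, as for Gbp5 at -1.11 to 1.46. On chromosome 3, Gbp2 differed by -0.06 (-0.23 to 0.12), Gbp7 by -0.03 (-0.18 to 0.12), Gbp3 by 0.04 (-0.14 to 0.22) and Gbp5 by 0.17 (-0.05 to 0.39). On chromosome 5, Gbp6 differed by 0.06 (-0.07 to 0.20) and Gbp10 by 0.15 (-0.22 to 0.53). Intervals of these 6 genes include 0; the widest, that of Gbp10, allows from a fold of 0.856 to one of 1.44. Gbp4 differed by 0.27 (0.09 to 0.46), with an unadjusted p of 0.00615 and an adjusted p of 0.987. Gbp11 differed by 0.57 (0.08 to 1.06), with an unadjusted p of 0.025 and the same adjusted p, and Gbp9 by 0.58 (-0.02 to 1.19). Without the block, the interval was -0.20 to 0.73 for Gbp4 and -0.62 to 1.61 for Gbp11. A p that misses the threshold does not show that the levels were alike.

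Within the same Control number, Gbp4, Gbp5, Gbp9 and Gbp11 were higher with FK866 in 3 of 3 pairs, 0 members were lower in 3 of 3, and 6 went both ways. Over the tested genes, 12.1% were higher and 16.2% lower in 3 of 3 pairs. Gbp11 stood at 3.91 CPM with IFNg and 9.17 CPM with IFNg + FK866 in Control 5, and at 11.4 and 11.9 CPM in Control 3. Gbp2 was 1.02 and 1.05 times its IFNg level in Control 3 and 4 and 0.825 times in Control 5. The summed level per kilobase with FK866 was 1.03, 1.04 and 0.831 times that with IFNg alone on chromosome 3, and 1.09, 1.12 and 1.162 times on chromosome 5, in Control 3, 4 and 5. The ratios of the clusters thus lay on opposite sides of 1 in Control 5 and on the same side in the other 2 numbers, and the difference was not tested.

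**Figure D4:**
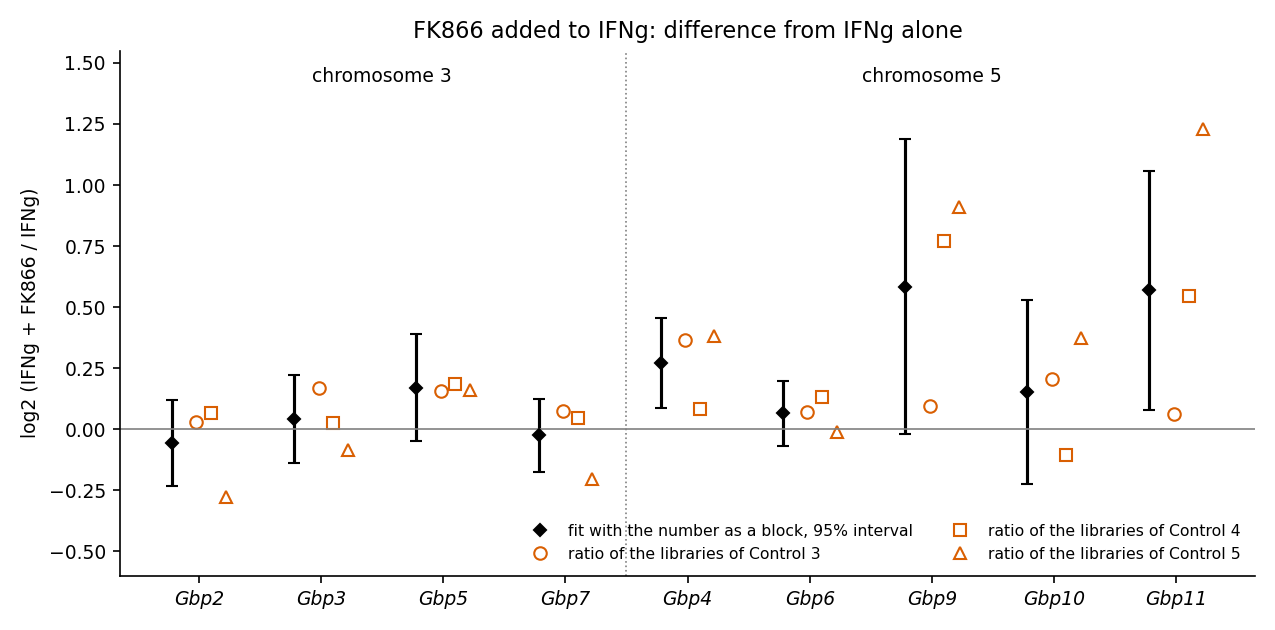
Log2 ratio of IFNg + FK866 to IFNg for the 9 tested genes: diamonds with bars are the fit with the Control number as a block and its 95% interval, and open symbols are the ratios of the libraries of the same Control number. The intervals of Gbp4 and Gbp11 lie above 0 before adjustment over 15237 genes, and those of the other 7 genes include 0. Without the block, the intervals of Gbp4 and Gbp11 include 0 as well.

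Against Media, the cells given IFNg + FK866 showed the same 9 tested members higher and 0 lower, where 2.76% of tested genes were higher and 0.597% lower. Because this comparison shares its Media libraries with that of IFNg alone, its values are set beside the former and not counted as separate support. The log2 fold change of Gbp2 was 8.02 against 8.05 with IFNg alone, that of Gbp3 6.25 against 6.19, that of Gbp7 8.80 against 8.81 and that of Gbp11 6.64 against 6.15. Without the Control 4 Media library, the values with IFNg + FK866 were 9.46 for Gbp7 and 10.44 for Gbp11, the latter with no Media count left. Against the floor or the few Media counts, the folds were at least 719.9 for Gbp4, 143 for Gbp10, 57.7 for Gbp9 and 6.16 for Gbp8, and ratios of 1210.1 for Gbp5 (counting interval 217 to 47834) and 5666 for Gbp6 (1016 to 223817). The libraries lay above Media without overlap in 10 of the 10 members and in 7.98% of tested genes. Adjusted p-values by edgeR ran from 1.53e-08 for Gbp6 to 9.59e-04 for Gbp5.

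How many genes beside the clusters were called depended on the fit. Within 250 kb of the outermost members or between them, 28 other genes are annotated, 10 had no count in any library and 12 were tested. Without the block 1 of the 12 was called, where 2.8% of tested genes were called higher and 0.499% lower. This gene was Gm26519, a long intergenic noncoding RNA that lies 54.8 kb beyond the chromosome 5 cluster (chr5:105401245-105406970). It rose from 3.76 ± 0.935 CPM in Media to 9.85 ± 1.36 CPM with IFNg (SD, n = 3), a log2 fold change of 1.39 (SE 0.27, adjusted p = 0.0218). With the Control number as a block, 7 of the 12 were called, 6 higher and 1 lower (Pdlim5), where the block called 8.12% of tested genes higher and 6.14% lower. The largest of these log2 changes with the block were 1.41 for Gm26519 and 1.17 for Gm32051, a further noncoding RNA beside it. Pkn2 and Gtf2b on chromosome 3 and Lrrc8b and Lrrc8c on chromosome 5 changed by 0.23 to 0.26. The members that border these flanks, Gbp2 and Gbp11, had log2 fold changes of 8.05 and 6.15.

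**Figure D5:**
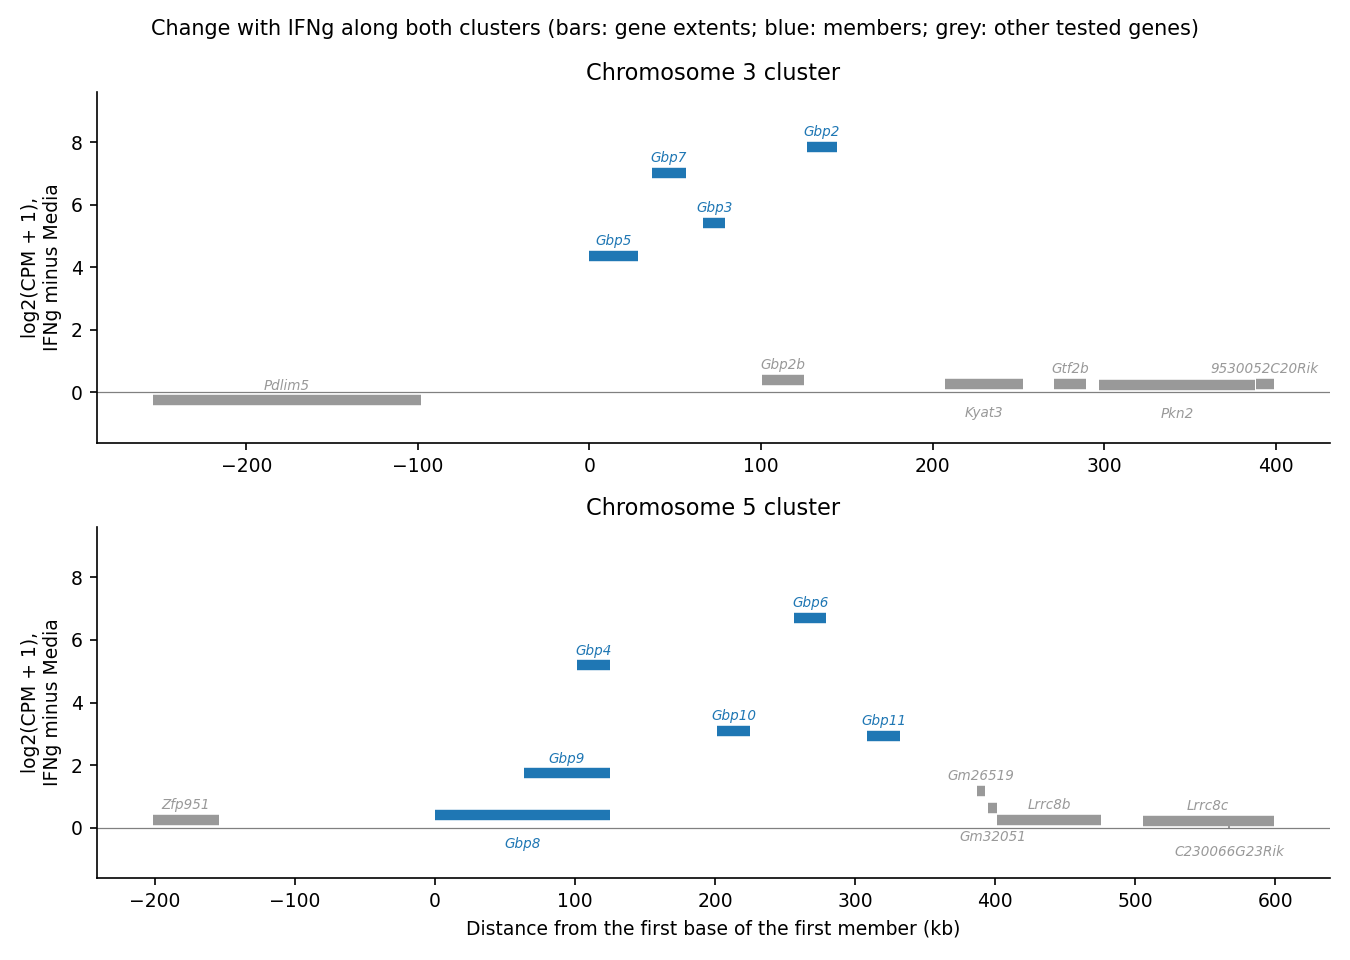
Change in group mean log2(CPM + 1) between IFNg and Media along each cluster, plotted over each gene's extent in kb from the first base of the first member; members are blue and other genes grey. The members stand above the flanking genes except Gbp8, whose level is under 1 CPM, and Gbp2b lies low within the chromosome 3 cluster.

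Along the route from receptor to Gbp genes, 9 of 13 listed genes rose with IFNg and 0 fell, beside 2.8% of tested genes called higher; the median log2 fold change of the list was 3.75 against -0.01 over tested genes. The cytokine's receptor subunits were not called, with log2 fold changes of 0.17 for Ifngr1 and -0.34 for Ifngr2. Socs1, a feedback inhibitor of JAK kinases, rose from 0.651 ± 0.0887 to 56.8 ± 2.57 CPM (log2 fold change 6.44, SE 0.14, adjusted p = 1.13e-08). Irf1 rose by 5.51 on the log2 scale (SE 0.16, adjusted p = 3.97e-08). With the Control number as a block, 11 were called higher and 1, Ifngr2, lower, where the block called 8.12% of tested genes higher and 6.14% lower.

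The immunity-related GTPases are a family of smaller GTPases that act on pathogen vacuoles together with guanylate-binding proteins. Of 10 listed genes, 9 were called higher with IFNg and 0 lower, beside 2.8% and 0.499% of tested genes. Igtp rose by 11.51 on the log2 scale (SE 0.20, adjusted p = 2.11e-09), and Gm12250 by 8.28 (SE 0.22, adjusted p = 1.93e-08). Tgtp2, which has a near-identical neighbour in Tgtp1, had 1 Media count and 343 ± 63.4 CPM with IFNg. Irgq was not called, with a log2 fold change of -0.07. Among 9 other dynamin-like GTPases, 8 were tested and 2 rose. These were the antiviral Mx1, by 2.87 (SE 0.52, adjusted p = 0.0136), and Mx2, by 4.21 (SE 0.73, adjusted p = 0.011). The atlastins Atl1, Atl2 and Atl3, relatives that shape the endoplasmic reticulum, were not called (log2 fold changes -0.10, -0.05 and -0.02).

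Partners of guanylate-binding proteins in inflammasomes were unevenly expressed. Of 10 listed, 5 were tested and 2 were called higher with IFNg, beside 2.8% of tested genes. Aim2, Nlrp3 and Il1b had no count in any library. Ninj1 stood at 100.6 ± 15.2 CPM in Media and 100.5 ± 12.9 CPM with IFNg, and Pycard at 10.7 ± 7.08 and 11.0 ± 4.59 CPM. Neither was called. Casp4, which encodes the caspase that senses bacterial lipopolysaccharide, rose from 0.190 ± 0.171 to 5.25 ± 4.89 CPM (log2 fold change 4.70, SE 1.07, adjusted p = 0.0461). Gsdmd, the pore-forming gasdermin, rose from 0.778 ± 0.181 to 3.07 ± 1.29 CPM (1.97, SE 0.43, adjusted p = 0.0397). Of 8 genes of prenylation and CaaX processing, the route that attaches lipids to some members, and of 11 genes of ubiquitin-like conjugation, through which these GTPases are recruited to vacuoles, 0 were called in either direction. The median log2 fold changes of these lists were 0.02 and 0.06, against -0.01 over tested genes. With the block, 1 gene of the prenylation list was called, Rabggta, higher (log2 fold change without the block 0.44), where the block called 8.12% of tested genes higher. No gene of any list was called between IFNg + FK866 and IFNg, where 0% of tested genes were called without the block and 0.0197% with it.

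For each member with a mean of at least 5 CPM with IFNg, the gene outside the family with the most similar profile was found by the root mean square difference of centred log2(CPM + 1) over the 9 libraries. Gbp2 was nearest to Irgm2 (0.31), Gbp3 to Zbp1 (0.23) and Gbp5 to Ifi203 (0.32). Gbp6 and Gbp7 were both nearest to Parp14, at 0.17 and 0.26. Gbp4 was nearest to Ciita (0.23), Gbp10 to Parp10 (0.22) and Gbp11 to Gm49730 (0.35). Among these nearest genes, Ciita was at 0 in Media and at a mean of 37.1 CPM with IFNg and 38.0 CPM with IFNg + FK866, beside 35.4 and 42.5 CPM for Gbp4.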

How the data were processed

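PolyA RNA of B16F10 cells was sequenced in 3 groups of 3 libraries. The deposited table holds whole-number read counts with a row for each Ensembl gene and a column for each library, and was treated as bulk; the series text names a platform often used for single cells. Per the submitters' processing notes, which here give neither role nor order, the tools were cutadapt 1.16, STAR 2.7.6a, DESeq2 1.30.1 and featureCounts 1.6.3 and the builds GRCm38 and mm10. Strand setting, annotation release and the handling of reads with several matches: not given in the sources used here.

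Of 55487 genes, 55141 were given a symbol and 55227 matched GENCODE M21, the source of coordinates and lengths. The counts of all 9 libraries entered 1 fit of edgeR 4.0.16 in R 4.3.3, with TMM scaling, filterByExpr and the quasi-likelihood F test. The 15237 genes kept hold 99.9% of the counts, and the Benjamini-Hochberg adjustment ran over them, with calls at an adjusted p below 0.05. Standard errors were derived from the F statistic. Alternatives used other scalings, no filter, DESeq2 1.42.0, limma-voom (limma 3.58.1), only the compared groups, the Control number as a block, and each library left out. The fit without the block was also run on simulated counts. These were drawn for each library independently and without a Control-number effect, so that run does not bear on the pairing of libraries. Coding sequences were aligned with Biopython 1.88.

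The Control number pairs the libraries, by the titles together with the data: the 9 same-number pairs had deviations from group means that correlated at 0.555 to 0.728. The 18 other pairs across groups correlated at -0.477 to -0.112. Deviations cancel out within a group, so these negative values follow from the positive ones and are not separate support. Sampling noise did not account for the differences within a group (chi-square over its degrees of freedom 23.0 to 39.5), so none were merged.

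The members and gene lists were chosen with earlier results of these data known. Named are the members, Gbp2b, the nearest gene to each member of at least 5 CPM, called genes nearby and, per list, the 3 called genes with the smallest p, of which 1 is not reported here. Other genes of a list, of the markers and of the flanks, and Gm43302, were named after their values were seen.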

Additional observations from a re-analysis of the deposited data

How the results depend on the processing

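In the comparisons with Media, the 9 tested members kept their direction under each alternative run, and 9 were called under each except limma-voom, where Gbp5 missed the threshold for IFNg against Media (log2 fold change 8.64, adjusted p = 0.0507); the cause was not tested. With each library left out in turn, 9 were still called in both comparisons. Without the filter on low counts, Gbp8 could be tested as well and was not called (adjusted p = 0.0889 with IFNg and 0.0744 with IFNg + FK866, each against Media). With the replicate block, which uses the pairing of libraries by Control number, no call of a member changed.

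The numbers of called genes depended on the fit. With the replicate block, 1237 genes were higher and 936 lower with IFNg than in Media, 1299 higher and 1160 lower with IFNg + FK866 than in Media, and 2 higher and 1 lower with IFNg + FK866 than with IFNg. DESeq2 called 180 lower with IFNg and 198 lower with IFNg + FK866, against 76 and 91 by edgeR. With only the compared groups in the fit, 59 were lower with IFNg + FK866. With each library left out, 287 to 420 genes were higher and 26 to 68 lower with IFNg, and 284 to 406 higher and 34 to 75 lower with IFNg + FK866.

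For IFNg + FK866 against IFNg, 15 log2 differences of 5 uncalled members changed sign. With library totals alone, Gbp2 stood at 0.0051 and Gbp7 at 0.028. With each library left out in turn, which leaves the groups with unequal sets of Control numbers, Gbp2 ran from -0.21 to 0.19, Gbp3 from -0.21 to 0.36, Gbp5 from -0.65 to 0.98, Gbp7 from -0.18 to 0.18 and Gbp10 from -0.088 to 0.36. The Control 4 libraries, in which Gbp5 is high, set both ends of its range.

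The share of the chromosome 5 members in the summed level per kilobase was 7.52% with IFNg and 8.66% with IFNg + FK866 when no length was used, 7.28% and 8.38% per coding length, 4.75% and 5.50% per exon base not shared with another gene, and 1.09% and 1.51% without Gbp6 and Gbp10. The last 3 were chosen after seeing the data, and each differs from the main value by its construction. With a library left out, it ran from 3.48% to 3.92% and from 3.69% to 4.78%. The coding length from RefSeq proteins, and leaving out members by protein identity, were planned and not run, since no protein table was used here. At the depth of these libraries, the levels of Gbp8 and Gm43302 rest on at most 14 counts in any library.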
